A study of Mus musculus with 6 samples.

Results

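The genes described here carry a calcium signal from the endoplasmic reticulum (ER) to calcineurin, to the NFAT transcription factors and into mitochondria. They are a list of 42 symbols set by function, of which 41 had a row among the 35186 symbols of the count table. Of these 41 genes, 29 passed the filter on low counts, as did 8895 of all symbols. The list was proposed partly because Rcan3 was high in the DKO libraries and almost absent from the WT libraries. The comparison of DKO with WT was therefore part of the choice, and its values are given below as a description. Counts of members called are printed beside the share of all genes, and nothing is concluded from them.

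In B cells, binding of antigen to the receptor activates phospholipase C, whose product IP3 opens the IP3 receptors and releases calcium from the ER. STIM proteins sense the emptied store and open ORAI channels in the plasma membrane, and pumps then clear the calcium again. Calcium bound to calmodulin activates calcineurin, a phosphatase that strips phosphate from NFAT factors and so lets them enter the nucleus, while kinases such as DYRK1A and GSK3 put the phosphate back. Mitochondria take up part of the calcium through the uniporter MCU.

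RNA was sequenced from NP-specific memory B cells sorted from spleens of the C57BL/6J strain, NP being a hapten used as a model antigen. The DKO group (3 libraries) was labelled Nix-/-Bnip3-/-, lacking the mitophagy receptor genes Bnip3l (also called Nix) and Bnip3, and the WT group (3 libraries) was labelled wild type. Each library came from about 1000 cells. The labels give no age, nor in which cells the genes were deleted. Separate animals are not stated either, so errors and p-values here cover differences among 3 libraries a group that may be technical only.

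The libraries were shallow and unequal in depth. Total counts were 444461 to 517057 in the DKO libraries and 312908 to 500527 in the WT libraries, and 67.02% to 70.45% of symbols had a count in DKO libraries against 50.68% to 52.54% in WT libraries. One library's counts ranked genes more like another's within the DKO group (Spearman correlation across genes 0.707 to 0.723) than within the WT group (0.483 to 0.491), and DKO and WT libraries lay between (0.537 to 0.568). A single count was worth 1.84 to 5.25 normalized CPM (counts scaled to a common library size, with TMM factors for composition), and counts of amplified reads carry at least this counting error. The targeted genes did not settle the labels: Bnip3l had 10, 16 and 41 counts in DKO libraries 1, 2 and 3 and 1, 8 and 0 in WT libraries 1, 2 and 3, and Bnip3 had 2, 24 and 11 against 25, 62 and 6. Directions below are between libraries as labelled. The summed level of 10 B cell markers was 366 to 527 normalized CPM in DKO libraries and 315 to 543 in WT libraries, but by library totals it was higher in every DKO library (504 to 675 against 247 to 441 CPM). Of these markers, Cd79a, part of the B cell receptor, had only 0, 2 and 4 counts in DKO libraries and 3, 0 and 0 in WT libraries. Cd79a was named after its values were seen, and the markers varied. Ptprc of the same list had 97, 60 and 71 counts in DKO libraries against 32, 17 and 18 in WT libraries. Of 8 marker lists for other cells of the spleen, 4 had summed levels that were lower in every DKO library than in every WT library. These were T cells (161 to 236 against 340 to 1129 normalized CPM, 10 genes, with Trac at 0 in all DKO libraries and Thy1 at 0 in all WT libraries), stromal and endothelial cells (346 to 484 against 514 to 1097, 7 genes, 0 of them at 0 in a whole group), platelets and megakaryocytes (31.0 to 58.8 against 105 to 309, 5 genes, with Gp1bb at 0 in all 6 libraries) and erythroid cells (22.1 to 31.7 against 58.0 to 162, 7 genes, with Hba-a1, Hba-a2, Hbb-bs and Hbb-bt at 0 in all DKO libraries and Hba-a2 and Hbb-bs at 0 in all WT libraries). Single genes of these lists went the other way: Cd3e and Lck (T cells) and Pecam1 (stromal and endothelial cells) were higher in every DKO library. Much of some sums came from 1 gene in 1 library, such as Bcl11b with 746 normalized CPM in WT library 3 and Col1a1 with 559 in WT library 1. With library totals in place of TMM scaling, the lower sums held for 1 of the 4, platelets and megakaryocytes. A different list, monocytes and macrophages (9 genes), was then higher in every DKO library (565 to 1101 against 89.1 to 468 CPM). Much of its DKO sums came from Lyz2 and Itgam. Lyz2 had 35, 92 and 206 counts in DKO libraries against 4, 0 and 10 in WT libraries. Itgam had 81, 181 and 147 against 1, 9 and 21. Of the 6 tested genes of this list, 3 were fitted higher and 3 (Csf1r, Fcgr1 and Spic) lower in DKO with TMM scaling. The part of these cells in the values below was not tested.

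Across the tested members, the quasi-likelihood test of edgeR called 0 of 29 at a threshold of 0.05 on the adjusted p, where 0% of all 8895 tested genes were called. At an unadjusted p under 0.05 there were 3 members, 1 above 0 and 2 below, where 5.49% of all tested genes were above and 6.59% below at that p. DESeq2 called 1 member, Rcan3, where it called 7.08% of the 8488 genes with an adjusted p (2.57% higher and 4.51% lower in DKO), and limma-voom called 0. The DKO and WT libraries did not overlap for 5 of the 29 members (17.2%), of which 2 were higher and 3 lower in DKO, beside 19.2% of all tested genes (12.8% higher and 6.39% lower). Since the contrast was used to propose the list, nothing is read from these shares. Fitted log2 fold changes of DKO over WT lay above 0 for 9 members and below 0 for 20, with a median of -0.47 beside -0.17 over all tested genes. Scaling by library totals alone moved the median of all genes by 0.78, to 0.62 (log2), and then 17 members lay above 0 and 12 below, and all fold changes below carry that dependence on scaling. Leaving out 1 library moved 20 of the 29 values by over 1.5-fold and turned the sign of 12.

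**Figure D1:**
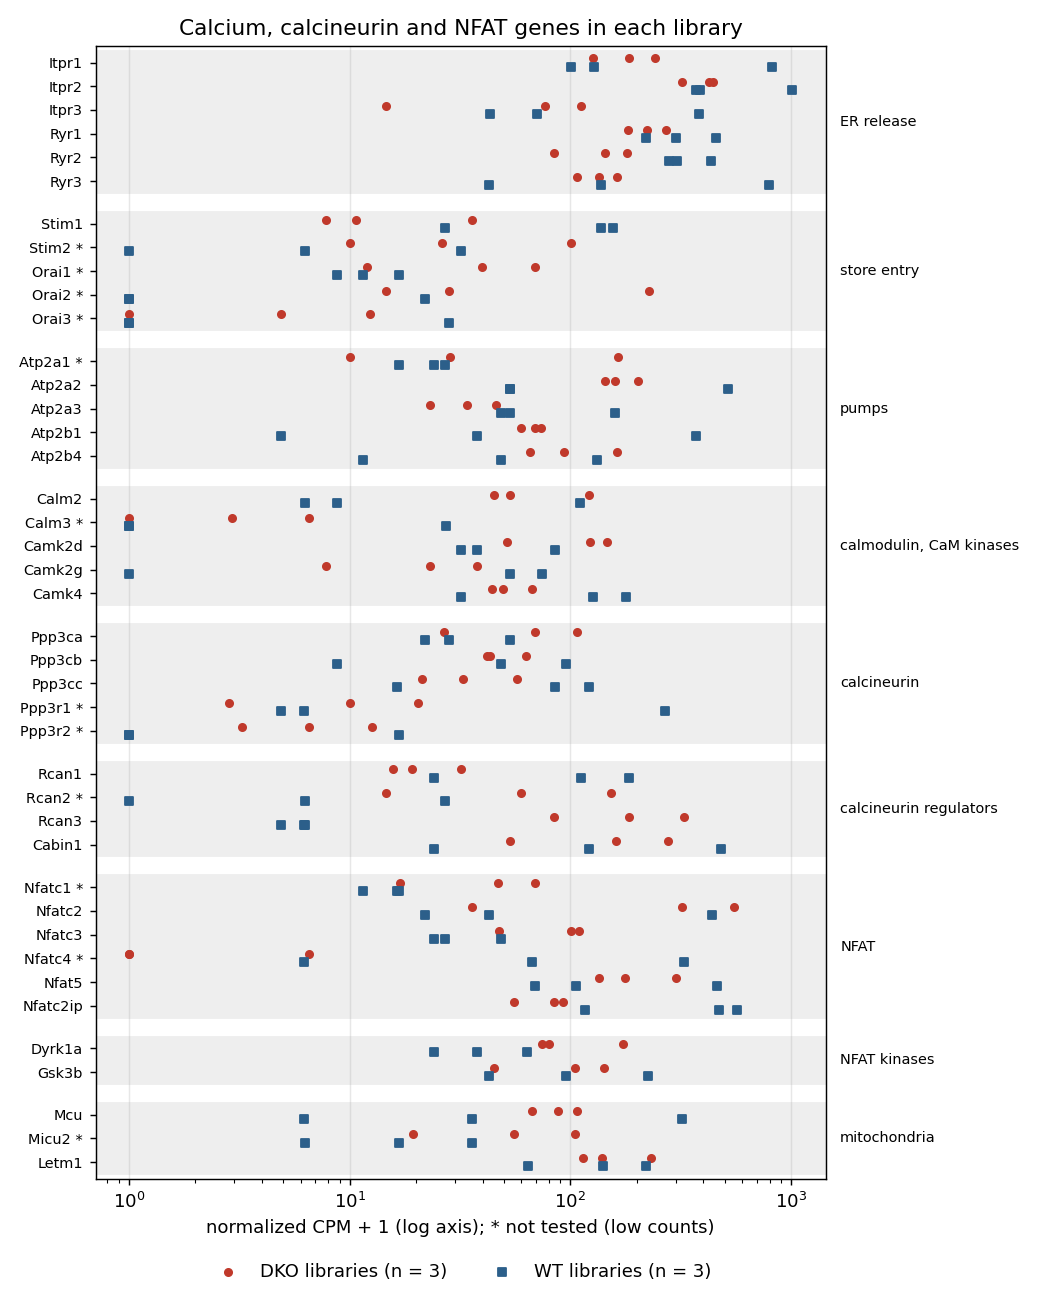
Normalized CPM plus 1 (log axis) of the 41 genes in each of the 3 DKO libraries (circles) and 3 WT libraries (squares), grouped by step of the pathway. For Rcan3 the DKO libraries lie at 83.7 to 327 and the WT libraries at 3.86 to 5.25 normalized CPM, while for most other genes the groups overlap.

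The calcium release channels of the ER lay below 0 in all 6 cases, with a median log2 fold change of -1.10, although by library totals Itpr2 and Ryr1 lay above 0. Their summed level was 1050 to 1185 normalized CPM in the DKO libraries and 1392 to 2732 in the WT libraries, without overlap, but by library totals the sums overlapped (1344 to 1630 against 1092 to 1900 CPM). Bulk counts cannot tell fewer cells of a type from less RNA per cell. Itpr2, an IP3 receptor gene, was the most abundant of the 3 per kb of exon in 5 of the 6 libraries. It had 423, 320 and 440 normalized CPM in DKO libraries 1, 2 and 3, against 371, 1012 and 383 in WT libraries 1, 2 and 3, with only WT library 2 standing apart (log2 fold change -0.58, SE 1.23, or 0.11 without that library). Itpr1, another IP3 receptor gene, had 183, 241 and 126 in DKO against 820, 128 and 99.8 in WT. Without WT library 1 its log2 fold change turned from -0.93 (SE 1.17) to 0.76. Itpr3 depended on the same library, with 13.6, 110 and 75.5 normalized CPM in DKO against 381, 69.6 and 42.01 in WT (log2 fold change -1.29, SE 1.14, or 0.32 without it). The DKO and WT libraries overlapped for all 3 IP3 receptor genes.

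The ryanodine receptor genes, best known for calcium release in muscle and neurons, were counted in all 6 libraries. Ryr2 (chromosome 13, 11553102 to 12106945, mm10) had 142.5, 82.8 and 180 normalized CPM in the DKO libraries, all below the 303, 278 and 431 of the WT libraries. Its log2 fold change was -1.32 (SE 1.01) and stayed between -1.47 and -0.95 with 1 library left out, but by library totals it was -0.56 and the groups overlapped. Ryr1 had 181, 269 and 221 in DKO against 219, 456 and 299 in WT, with a log2 fold change of -0.54 (SE 1.03) that was 0.27 by library totals. Ryr3 had 106, 162 and 134 in DKO against 41.8, 788 and 137 in WT, so that WT library 2 held 57.6% of its summed level, and without it the value was 0.63 in place of -1.27 (SE 1.20). These channels are among the longest genes of the list, with 19.0 to 28.8 kb of exon. Across the 41 members the mean level in CPM was higher for genes with longer exons (Spearman 0.69) and longer spans (0.49), where all 19598 protein-coding genes with a count gave 0.57 and 0.55, and the 8435 tested genes with a gene model 0.35 and 0.26. These correlations across genes are a description of libraries that all genes share. Per kb of exon, Ryr1, Ryr3 and Ryr2 were 17th, 19th and 27th of the 41 genes, at 10.2, 7.06 and 4.69 CPM per kb in DKO and 14.9, 16.98 and 11.7 in WT.

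**Figure D2:**
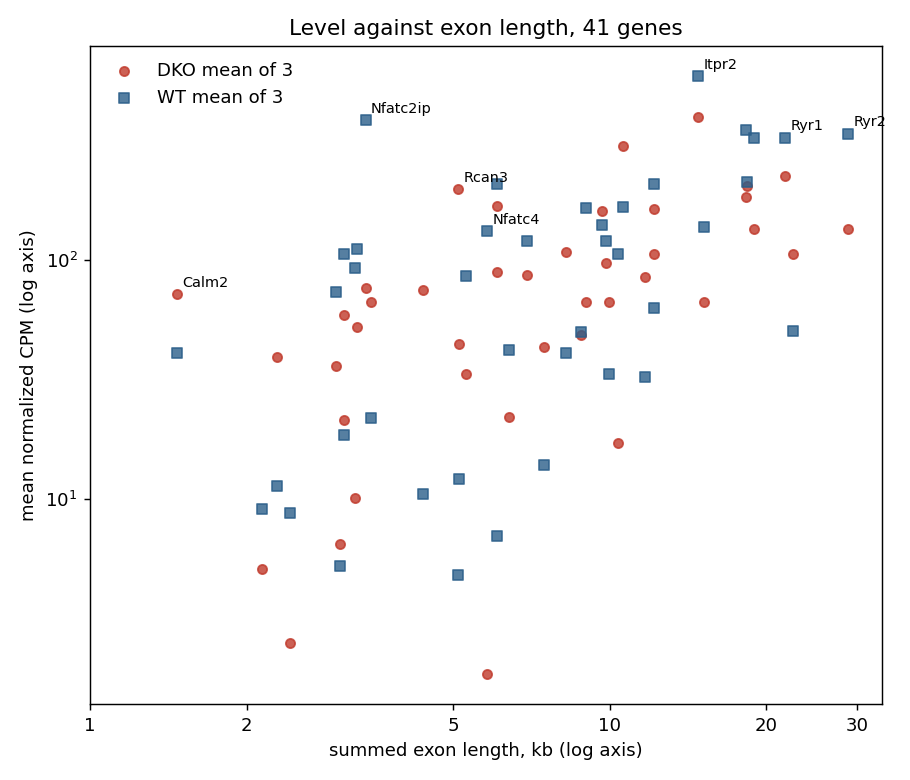
Mean normalized CPM of each of the 41 genes in DKO libraries (circles) and in WT libraries (squares) against summed exon length in kb, both on log axes. Long genes such as Ryr2, with 28.8 kb of exon, lie to the right and high, while the group means of Rcan3 and Nfatc4 are far apart at similar lengths. For Nfatc4, which was not tested, WT library 3 holds 81.0% of the summed level, and the DKO and WT libraries overlap.

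Among the store sensors, Stim1 was the lower and Stim2 the higher of the pair in every DKO library, and the reverse in every WT library. Stim1 (chromosome 7, 102267806 to 102437319) had 3, 19 and 5 counts in DKO libraries 1, 2 and 3, against 5, 40 and 26 in WT libraries 1, 2 and 3. The fitted value for DKO over WT was -2.59 (log2, SE 1.10), between -3.51 and -2.08 with 1 library left out and -1.75 by library totals, and DKO library 2 lay above WT library 1 once normalized. Stim2 (chromosome 5, 53998499 to 54121057) had 4, 54 and 13 counts in DKO against 0, 8 and 1 in WT and did not pass the filter. A share within a library does not depend on scaling: per kb of exon, Stim1 made up 27.1%, 14.8% and 16% of the Stim total in DKO libraries, against 100%, 71.2% and 92.8% in WT libraries. These shares rest on as few as 7 counts in DKO library 1 and 5 in WT library 1. As a share of the Stim counts, Stim1 held 42.9% in DKO library 1 (exact 95% binomial interval 9.90% to 81.6%) and 100% in WT library 1 (47.8% to 100%), so these intervals, which cover counting error only, overlapped.

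The ORAI channel genes, which form the pore for store-operated entry, had enough counts in too few libraries to be tested. Orai1 had 30, 6 and 20 counts in DKO libraries 1, 2 and 3 against 3, 2 and 2 in WT libraries 1, 2 and 3, and once normalized DKO library 2 lay below WT library 1. Orai2 had 12, 123 and 7 counts in DKO against 4, 0 and 0 in WT, with 78.6% of its summed level in DKO library 2. Orai3 had 5, 0 and 2 in DKO against 0, 7 and 0 in WT. By library totals alone the DKO libraries lay above the WT libraries for Orai1 and for Orai2. By that scaling the same held for 2119 of all 8895 tested genes, and the reverse for 223.

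The pumps that clear calcium showed no common direction. Atp2a2, which encodes the widely expressed SERCA pump of the ER, had 142.5, 158 and 201 normalized CPM in DKO libraries, against 52.2, 518 and 52.5 in WT libraries, so the DKO values were close together and lay between those of WT. Its log2 fold change of -0.31 (SE 1.12) became 1.71 without WT library 2. Atp2a3, the SERCA gene typical of blood cells, had 45.2, 22.1 and 32.9 in DKO, just below 52.2, 158 and 47.3 in WT. The log2 fold change was -1.36 (SE 0.95), or -0.53 without WT library 2 and -0.55 by library totals, where the groups overlapped. Atp2a1, the fast muscle pump gene, had 4, 15 and 84 counts in DKO against 5, 6 and 3 in WT and was not tested. Of the plasma membrane pump genes, Atp2b1 had 72.4, 58.9 and 67.8 normalized CPM in DKO against 371, 3.86 and 36.8 in WT. Its log2 fold change of -1.04 (SE 1.26) became 1.80 without WT library 1. Atp2b4 had 92.7, 64.4 and 161 in DKO against 10.4, 131 and 47.3 in WT (log2 fold change 0.73, SE 1.03, or 1.90 without WT library 2).

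Calmodulin is encoded by several genes for the same protein, and the calmodulin-dependent kinases act on its calcium-bound form. Calm2 was the most abundant member per kb of exon in DKO, at 49.2 ± 28.3 CPM per kb against 27.9 ± 40.6 in WT (SD, n = 3 each). It had 53, 24 and 27 counts in DKO libraries against 21, 2 and 1 in WT libraries. The log2 fold change was 0.83 (SE 1.18), and without WT library 1 it was 3.46. Calm3 had 0, 3 and 1 counts in DKO against 0, 0 and 5 in WT, and pseudogene copies make counts of calmodulin genes uncertain. Camk2d, a subunit of CaM kinase II, had 145, 121.5 and 50.4 normalized CPM in DKO against 36.6, 30.9 and 84.0 in WT (1.06, SE 0.94, or 1.71 without WT library 3). Camk2g, another subunit gene, had 6.79, 22.1 and 36.8 in DKO against 0, 73.4 and 52.5 in WT (-0.94, SE 1.20, or -0.21 without WT library 2). Camk4, a nuclear kinase also abundant in T cells, had 43.0, 66.3 and 48.4 in DKO against 178, 30.9 and 126 in WT (-1.07, SE 0.96, or -0.49 without WT library 1).

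Calcineurin consists of a catalytic A subunit and a regulatory B subunit. Among the genes of the A subunit, Ppp3cc was the most abundant per kb of exon in all 6 libraries, with 48.2%, 47.9% and 51.5% of the total of the 3 in DKO libraries, against 71.7%, 59.1% and 79.0% in WT libraries. Its level was 31.7, 20.2 and 56.2 normalized CPM in DKO against 120, 15.5 and 84.0 in WT (log2 fold change -1.01, SE 1.01, or -0.37 without WT library 1). Ppp3ca lay the other way, with 67.9, 25.8 and 106.5 in DKO against 52.2, 27.1 and 21.0 in WT (0.99, SE 0.97). Ppp3cb had 40.7, 42.3 and 62.0 in DKO against 94.0, 7.73 and 47.3 in WT (-0.03, SE 1.02), and its sign turned under 11 of the 16 alternatives. All 3 genes had groups that overlapped. The B subunit gene Ppp3r1 had 4, 1 and 10 counts in DKO against 1, 1 and 51 in WT, with 87.2% of its summed level in WT library 3. Ppp3r2, the B subunit of testis, had 1, 3 and 6 in DKO against 0, 0 and 3 in WT. Neither B subunit gene was tested.

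The regulators of calcineurin, the RCAN proteins, bind the phosphatase and inhibit it when abundant. Rcan3 (chromosome 4, 135412308 to 135433853, minus strand) had 37, 100 and 169 counts in DKO libraries 1, 2 and 3, against 1, 1 and 1 in WT libraries 1, 2 and 3. This is 198 ± 122 against 4.78 ± 0.793 normalized CPM (SD, n = 3 each), and it is the value for which the list was proposed. Rcan3 passed the filter on low counts through the DKO libraries alone. The fitted log2 fold change was 5.29 (SE 1.17), between 4.83 and 5.79 with 1 library left out and 6.03 by library totals, and it depends on the prior count because the WT libraries hold 1 count each. Ordered per kb of exon, Rcan3 was 2nd of the 41 genes in DKO and last in WT.

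Rcan1, the best known member, whose transcription NFAT itself induces, lay the other way. It had 8, 8 and 16 counts in DKO against 35, 6 and 21 in WT, or 18.1, 14.7 and 31.0 against 183, 23.2 and 110 normalized CPM, and DKO library 3 lay above WT library 2. On the log2 scale Rcan1 stood at -2.28 (SE 1.04), between -2.72 and -1.55 with 1 library left out, and -1.57 by library totals. Rcan2 had 67, 32 and 7 counts in DKO against 5, 0 and 1 in WT and was not tested, with 59.3% of its summed level in DKO library 1. Within each library, Rcan1 made up 10.3%, 8.80% and 13.0% of the RCAN total per kb of exon in DKO, against 89.4%, 90.9% and 94.1% in WT. Rcan3 made up 28.8%, 66.4% and 83.0% in DKO, against 1.54%, 9.14% and 2.71% in WT, and Rcan2 led in DKO library 1 with 60.9%. As a share of RCAN counts, Rcan1 held 5.71% to 8.33% in DKO libraries and 85.4% to 91.3% in WT libraries. The RCAN counts that these shares are taken from were largely Rcan3 in DKO libraries 2 and 3 (71.4% and 88.0%), so the separation follows in part from the gene for which the list was proposed, and WT library 2 had 7 RCAN counts in all. Cabin1, which encodes another protein that binds and inhibits calcineurin, had 52.0, 160 and 277 normalized CPM in DKO against 480, 23.2 and 121 in WT (log2 fold change -0.35, SE 1.19, or 1.26 without WT library 1).

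**Figure D3:**
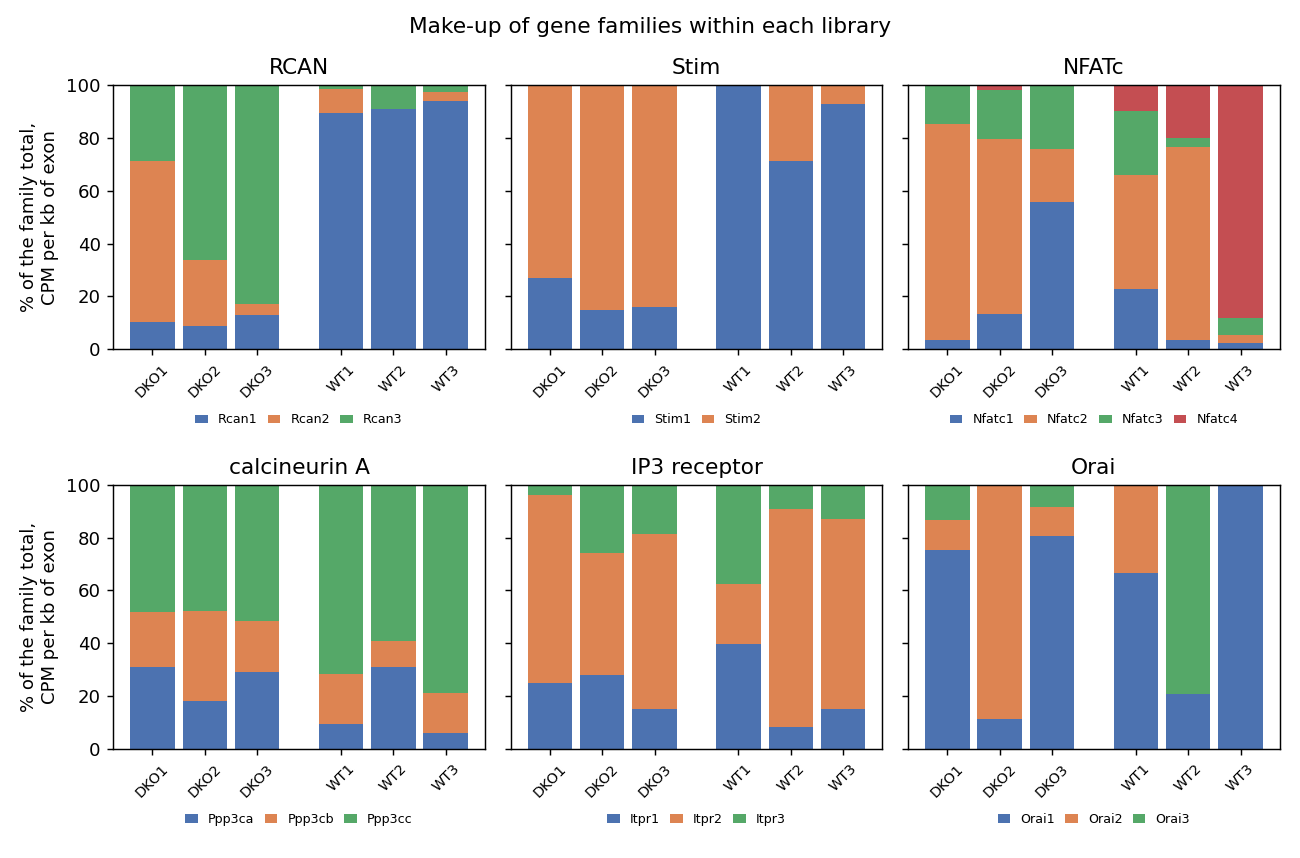
Share of each gene in the total of its family in each library (bars stacked to 100%, from CPM per kb of summed exon), with DKO libraries left of WT libraries. Rcan1 makes up 8.80% to 13.0% of the RCAN family in DKO and 89.4% to 94.1% in WT. The RCAN total of DKO libraries 2 and 3 is mostly Rcan3, for which the list was proposed, so this difference follows in part from that choice. Stim1 makes up 14.8% to 27.1% of its family in DKO against 71.2% to 100% in WT. These Stim shares rest on as few as 7 counts in DKO library 1 and 5 in WT library 1. The leading ORAI and NFATc genes differ between libraries of the same group.

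Promoter windows of the RCAN genes whose shares differed are shown because NFAT factors are known to bind the core letters GGAAA and because Rcan1 has 2 separate starts that gene counts merge. The windows run from 250 bases before to 50 after a start (RefSeq, GRCm38.p6), are written 5′ to 3′ on the gene's own strand, and have GGAAA or its reverse complement TTTCC in capitals. The Rcan3 window is chr4:135433756-135434055, the internal Rcan1 window is chr16:92400029-92400328 and the upstream Rcan1 window is chr16:92466120-92466419, all on the minus strand.
Rcan3: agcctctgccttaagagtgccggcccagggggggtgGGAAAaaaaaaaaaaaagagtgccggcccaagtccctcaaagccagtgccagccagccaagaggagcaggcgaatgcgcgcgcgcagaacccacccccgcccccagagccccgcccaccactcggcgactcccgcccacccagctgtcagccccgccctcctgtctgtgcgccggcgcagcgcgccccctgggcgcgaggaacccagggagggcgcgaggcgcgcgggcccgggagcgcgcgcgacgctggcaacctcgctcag
Rcan1 internal start: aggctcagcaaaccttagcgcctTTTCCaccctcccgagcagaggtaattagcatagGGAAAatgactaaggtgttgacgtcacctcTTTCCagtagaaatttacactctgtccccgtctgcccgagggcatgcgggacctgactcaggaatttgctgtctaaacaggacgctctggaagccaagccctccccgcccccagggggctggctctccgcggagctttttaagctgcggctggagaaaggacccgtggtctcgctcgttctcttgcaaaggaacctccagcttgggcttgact
Rcan1 upstream start: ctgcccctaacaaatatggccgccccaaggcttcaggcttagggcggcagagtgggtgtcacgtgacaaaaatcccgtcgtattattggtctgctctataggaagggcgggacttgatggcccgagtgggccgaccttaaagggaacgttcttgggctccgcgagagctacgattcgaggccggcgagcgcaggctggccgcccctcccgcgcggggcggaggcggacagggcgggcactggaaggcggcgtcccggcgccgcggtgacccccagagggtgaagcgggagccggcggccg
The Rcan3 window held 1 copy, the internal Rcan1 window 3 copies and the upstream Rcan1 window 0 copies. Searched on both strands, 61.3% of all 32851 windows of this length held at least 1 copy, 26.7% at least 2 and 9.42% at least 3. Of the 41 members, 32 matched at least 1 window, and 23 of their 40 windows (57.5%) held a copy. A match is a description of these letters and not a site, and the counts per gene do not say which Rcan1 start was used.

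The NFATc factors, the targets of calcineurin, differed in their make-up between libraries of the same group, with Nfatc1 leading in DKO library 3 and Nfatc4 in WT library 3. Nfatc2 was the leading member of the family per kb of exon in 4 of the 6 libraries. It had 547, 318 and 34.9 normalized CPM in DKO libraries against 41.8, 437 and 21.0 in WT libraries, so that 1 library in each group went against the others (log2 fold change 0.84, SE 1.37, or 3.29 without WT library 2). Nfatc3 had 109, 99.4 and 46.5 in DKO against 26.1, 23.2 and 47.3 in WT, where DKO library 3 lay just below WT library 3. Nfatc3 had a log2 fold change of 1.39 (SE 0.93), between 1.24 and 1.84 with 1 library left out and 2.16 by library totals. Nfatc1, the factor that lymphocytes induce on activation, had 7, 25 and 35 counts in DKO against 3, 4 and 2 in WT. It did not pass the filter, although its normalized levels did not overlap, by a margin of 15.8 in DKO library 1 to 15.7 in WT library 1. Nfatc4, a factor best known outside the blood, had 0, 3 and 0 counts in DKO against 1, 17 and 62 in WT. WT library 3 held 81.0% of its summed level, and DKO library 2 lay just above WT library 1.

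Nfat5, a relative that responds to osmotic stress and lacks regulation by calcineurin, had 176, 298 and 134 normalized CPM in DKO libraries against 67.9, 460 and 105 in WT libraries. For Nfat5 the log2 fold change was -0.06 (SE 1.07), with a sign that turned under 9 of the 16 alternatives. Nfatc2ip (chromosome 7, 126382854 to 126396737), which encodes a protein that binds NFATc2 and enhances cytokine transcription in T cells, was the most abundant of the 41 genes per kb of exon in WT. It had 54.3, 92.0 and 83.3 normalized CPM in DKO, all below 470, 568 and 115.5 in WT. The fitted log2 value was -2.32 (SE 1.10), between -2.68 and -1.89 with 1 library left out. By library totals it was -1.52, and the groups overlapped.

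Of the kinases that return NFAT to the cytoplasm, Dyrk1a (chromosome 16, 94570010 to 94695517) had 79.2, 171 and 73.6 normalized CPM in DKO libraries, above 62.7, 23.2 and 36.8 in WT libraries. The fitted log2 value was 1.40 (SE 0.94), between 1.01 and 1.92 with 1 library left out and 2.17 by library totals, where the groups did not overlap either. Gsk3b had 104, 44.2 and 141 in DKO against 41.8, 224 and 94.5 in WT (log2 fold change -0.32, SE 0.98, or 0.54 without WT library 2). These groups overlapped.

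Mitochondrial calcium uptake was represented by the uniporter, its regulators and an exchanger. Mcu, the pore of the uniporter, had 47, 36 and 45 counts in DKO libraries against 1, 9 and 61 in WT libraries, or 106, 66.3 and 87.2 against 5.22, 34.8 and 320 normalized CPM. The DKO values were close together, and WT library 3 lay above and the other WT libraries below them. Its log2 fold change of -0.47 (SE 1.21) became 2.13 without WT library 3. Micu2, a gatekeeper that keeps the pore shut at low calcium, had 46, 10 and 28 counts in DKO against 3, 9 and 1 in WT and was not tested, and its normalized groups overlapped. Letm1, an inner membrane protein of ion exchange, had 113, 230 and 137.5 normalized CPM in DKO against 219, 139 and 63.0 in WT (log2 fold change 0.19, SE 0.94). Mcub, which encodes a subunit that dampens the pore, had no row under that symbol. RefSeq lists Ccdc109b as its synonym, and the row of that name, not counted among the members and named after its values were seen, had 12, 20 and 15 counts in DKO against 1, 0 and 1 in WT. Together the 3 counted members summed to 279 to 324 normalized CPM in DKO and 209 to 389 in WT. By library totals, however, these sums did not overlap (357 to 433 CPM in DKO against 145 to 305 in WT). The DKO libraries then lay above the WT libraries for Micu2 too, so this separation depended on scaling. By library totals 2119 of all 8895 tested genes were higher in every DKO library and 223 lower.

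**Figure D4:**
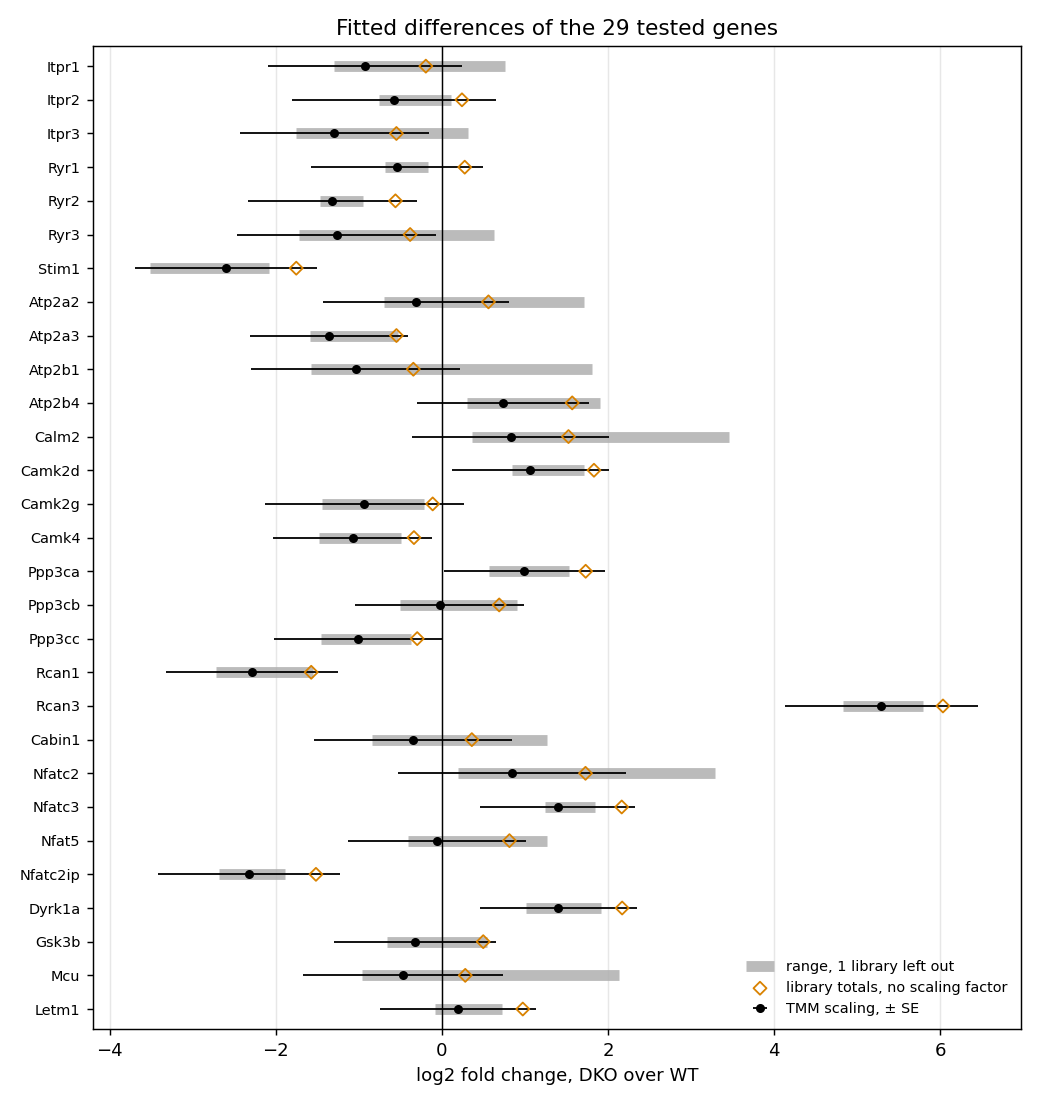
Fitted log2 fold change of DKO over WT for the 29 tested genes with TMM scaling (dots, with SE), its range with 1 library left out (grey bars) and its value with library totals (diamonds). Rcan3 at 5.29 stands far to the right, Stim1, Nfatc2ip and Rcan1 at -2.59 to -2.28 lie to the left, and 12 grey bars cross 0.

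The other genes of the pathway, listed by function, gave no call, and their fold changes are given with TMM scaling only. Of 105 further symbols in 7 lists, 59 genes were tested, 0 passed edgeR's test (0% of all tested genes did), 37 lay above 0 and 22 below, with a median log2 fold change of 0.28. Among the calcium-binding proteins of the ER, 7 of 7 tested genes lay above 0 with edgeR (median 0.79) and 6 of 7 with DESeq2, beside 45.5% of all tested genes with edgeR. Hspa5 and Rcn2 of this list, and Camk1d and Mef2d named below, passed the filter on low counts through the DKO libraries alone. The filter favours values above 0 for such genes, so nothing is read from the 7 of 7. Examples from this list, which also holds a Golgi protein, were Hspa5, the chaperone BiP, with 16, 77 and 35 counts in DKO libraries against 6, 3 and 4 in WT libraries (log2 fold change 1.94, SE 1.00), and Sdf4, that Golgi protein, with 105, 98 and 126 against 37, 27 and 7 (0.98, SE 0.98). Hsp90b1, an ER chaperone, had 31, 69 and 37 against 0, 22 and 4. Of the other mitochondrial calcium genes 5 of 7 lay above 0 (median 0.28), among them the chaperone gene Hspa9 with 40, 68 and 47 counts in DKO against 1, 14 and 7 in WT. The outer membrane channel genes Vdac1 and Vdac3 had 16, 57 and 22 against 19, 1 and 2, and 11, 34 and 9 against 0, 0 and 8.

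Upstream of the IP3 receptors, 3 of 6 tested genes lay above 0. Plcg1, a phospholipase C, had 12, 16 and 7 counts in DKO libraries against 23, 27 and 41 in WT libraries, without overlap (log2 fold change -2.63, SE 0.95). Blnk, the adaptor that recruits phospholipase C in B cells, had 25, 36 and 37 against 106, 21 and 58 (-2.26, SE 1.06), and Vav1, an exchange factor, 25, 14 and 66 against 13, 0 and 2. Of other calcium channels and pumps 9 of 15 lay above 0. Atp2c1, the Golgi pump gene, had 26, 41 and 59 in DKO against 16, 1695 and 24 in WT, its value resting on WT library 2. Trpv2 had 13, 14 and 3 against 174, 3 and 16, and Cacna1d 107, 57 and 23 against 47, 474 and 9.

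Of other genes of calmodulin kinases and calcineurin binding, 5 of 9 tested lay above 0. Camk1d, a CaM kinase, had 32, 75 and 30 counts in DKO libraries against 5, 6 and 3 in WT libraries (log2 fold change 2.03, SE 0.95), while its relative Camk1g had 9, 9 and 53 against 51, 71 and 7 and the anchoring protein gene Akap1 18, 8 and 3 against 10, 68 and 0. Of other NFAT kinases and partners 5 of 10 lay above 0. In this list Mef2c and Mef2d, which encode transcription factors that also answer to calcineurin, lay in opposite directions. Mef2c had 12, 20 and 7 counts in DKO against 23, 24 and 58 in WT (-2.72, SE 0.99), and Mef2d 15, 47 and 16 against 0, 1 and 4 (2.59, SE 1.20). Both had groups that did not overlap. Csnk1d, a casein kinase, had 98, 46 and 182 against 20, 13 and 16. Of 18 genes known as NFAT targets in lymphocytes, 5 had enough counts to be tested and 3 of these lay above 0. Irf4, a factor of plasma cell fate, had 81, 53 and 5 in DKO against 5, 25 and 1 in WT. The cytokine gene Il4 had 17, 7 and 18 against 7, 1 and 0, and the nuclear receptor gene Nr4a3 8, 11 and 6 against 37, 40 and 0, all with groups that overlapped.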

How the data were processed

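RNA of NP-specific memory B cells was sequenced in 3 DKO and 3 WT libraries. The authors deposited raw read counts per gene symbol. About 1000 sorted cells went into each amplified, polyadenylated-RNA library, per the labels' protocols. CASAVA, STAR, edgeR, R 3.6.3 and the build mm10 are named, without roles, per the submitters' processing notes. The counter, its strand setting, its annotation and its handling of multiply mapping reads were not given in the sources used; overlapping, antisense and near-identical genes are therefore uncertain. Columns were matched to samples by name, leaving 0 unmatched.

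The test used the deposited counts in edgeR 4.0.16 under R 4.3.3, after filterByExpr (minimum count 10), TMM, robust quasi-likelihood F test, DKO against WT, Benjamini-Hochberg adjustment over the 8895 genes kept, threshold 0.05. The SE was taken as the fold change (log2) over the root of F. Normalized CPM use the TMM effective library size. TMM factors were 1.28 to 1.38 for DKO and 0.695 to 0.812 for WT libraries. Gene positions and summed exon lengths are from GENCODE M21 on mm10, matched for 31032 of 35186 symbols and all 41 members. Python 3.11.15 and scipy 1.17.1 gave exact intervals at 95%. The fit was tested on simulated data.

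The members and lists were chosen with earlier results of these data known. Every member is given, and from each further list the tested genes with the 3 smallest p. Cd79a and Ccdc109b were named after their values were seen. Alternatives were other scalings (DESeq2 1.42.0 size factors, TMMwsp, upper quartile, and library totals, which are the summed counts of the genes kept), no filter, a mean CPM of at least 10, DESeq2 on the filtered genes, limma 3.58.1 (voom with sample weights), a fit that was not robust, a threshold of 0.1, the replicate number as a block and each library left out.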

Additional observations from a re-analysis of the deposited data

How the results depend on the processing

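Of the 29 tested members, 16 kept the sign of their log2 fold change under all 16 alternatives with a value for each member, among them Rcan3, Stim1, Rcan1, Nfatc2ip, Dyrk1a and Nfatc3, and 13 changed it under at least 1. The count of members called was 0 in each alternative except DESeq2, with 1 (Rcan3), and the count of genes called was 0 except for 130 with no filter and 601 with DESeq2 (218 higher and 383 lower in DKO). Rcan3 is the gene for which the list was proposed, so its call and its steady sign are given as a description only. Tested members whose groups did not overlap numbered 5, or 3 by library totals (Rcan3, Nfatc3 and Dyrk1a, all higher in DKO). By library totals 26.3% of all tested genes did not overlap, 2119 of them higher and 223 lower in DKO. Of the members not tested, Orai1, Orai2, Nfatc1 and Micu2 were also higher in every DKO library by library totals. With 1 library left out, tested members without overlap numbered 8 to 16, of 32 to 37 members tested, where fewer libraries have to be apart. The share of all genes was not computed for those fits, so nothing is read from these counts. Over the tested members the median log2 fold change, -0.47, was -0.21 with upper quartile scaling, 0.28 by library totals, -0.026 with no filter (41 members), -0.10 with a mean CPM of at least 10, 0.036 with limma-voom, 0.31 with the replicate block and between -0.50 and 0.45 with 1 library left out, the highest without WT library 1. The replicate block called 0 genes and 0 members. Deviations of same-numbered libraries correlated at 0.0227 to 0.0368, each the highest for its number, and those of differently numbered libraries at -0.0238 to -0.00377. Values this small from 3 libraries a group cannot decide whether the replicate numbers pair the libraries. With scaling, the median of all tested genes moved the same way as that of the members. It was -0.17 in the main fit, 0.098 with upper quartile scaling and 0.62 by library totals. The cause of the other shifts of the member median was not tested. The 12 members that were not tested had enough counts for the filter in too few libraries. Among them, Orai2 and Ppp3r1 had 78.6% and 87.2% of their summed level in 1 library each. A count of 3 or fewer in a library corresponds to at most 5.52 to 15.8 normalized CPM.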
